A study of Mus musculus with 17 samples.

Results

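Cultured mouse astrocytes were examined for 9 genes of the machinery that recognizes and engulfs dying cells and synapses, out of 56691 gene rows in the count table. The genes were taken by symbol: the receptors Mertk, Axl and Tyro3 (together called TAM receptors), their ligands Gas6 and Pros1, the receptor Megf10, the secreted bridging protein Mfge8, and Itgav and Itgb5, which encode the chains of αvβ5 integrin. The astrocytes came from whole brains of C57BL/6 mice at P2, taken without meninges, olfactory bulbs and cerebellum, and were purified by immunopanning: dishes with antibodies to CD45 and O4 held back microglia, macrophages and oligodendrocyte precursors, and a HepaCAM dish then retained astrocytes. All 5 groups therefore share strain, age, purification and a serum-free medium with heparin-binding EGF-like growth factor. In the first experiment, 3 SAG cultures received 500 ng/ml of this small-molecule Smoothened agonist from day 3 in vitro for 3 days, and 3 DMSO cultures received the solvent. In the second, 4 FGF2 and 3 FGF10 cultures received 50 ng/ml of the named growth factor from day 2 for 7 days, and 4 PBS cultures served as controls. The study describes its samples as pooled, and it gives 3 FGF2 replicates where the labels give 4, all of which were used here.

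A cell that is to be eaten exposes phosphatidylserine on its outer membrane. Gas6 and protein S, the product of Pros1, bind this lipid and the TAM receptor tyrosine kinases, whereas Mfge8 links the lipid to αv integrins. Astrocytes are known to use Mertk and Megf10 to take up synapses and cell debris, a role they share with microglia in the brain.

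All 9 genes were detected and all 9 passed the filter on low counts in each of the 5 comparisons. Their values are given as CPM (gene counts scaled to a common library size) after TMM normalization over the 17 libraries, whose total counts ran from 17481727 to 68342287. Reads came from the 3ʹ end of each transcript, so a CPM does not grow with transcript length, although genes can still differ in how well they are captured. With that limit, Mfge8 was the most abundant of the 9, with a mean of 541 CPM over all libraries and a rank above 99.2% of the genes with any count. Itgb5 followed with 131 CPM, then Tyro3 with 70.1, Axl with 59.8, Gas6 with 48.0, Megf10 with 28.2, Pros1 with 26.3, Itgav with 20.6 and Mertk with 6.22 CPM.

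**Figure D1:**
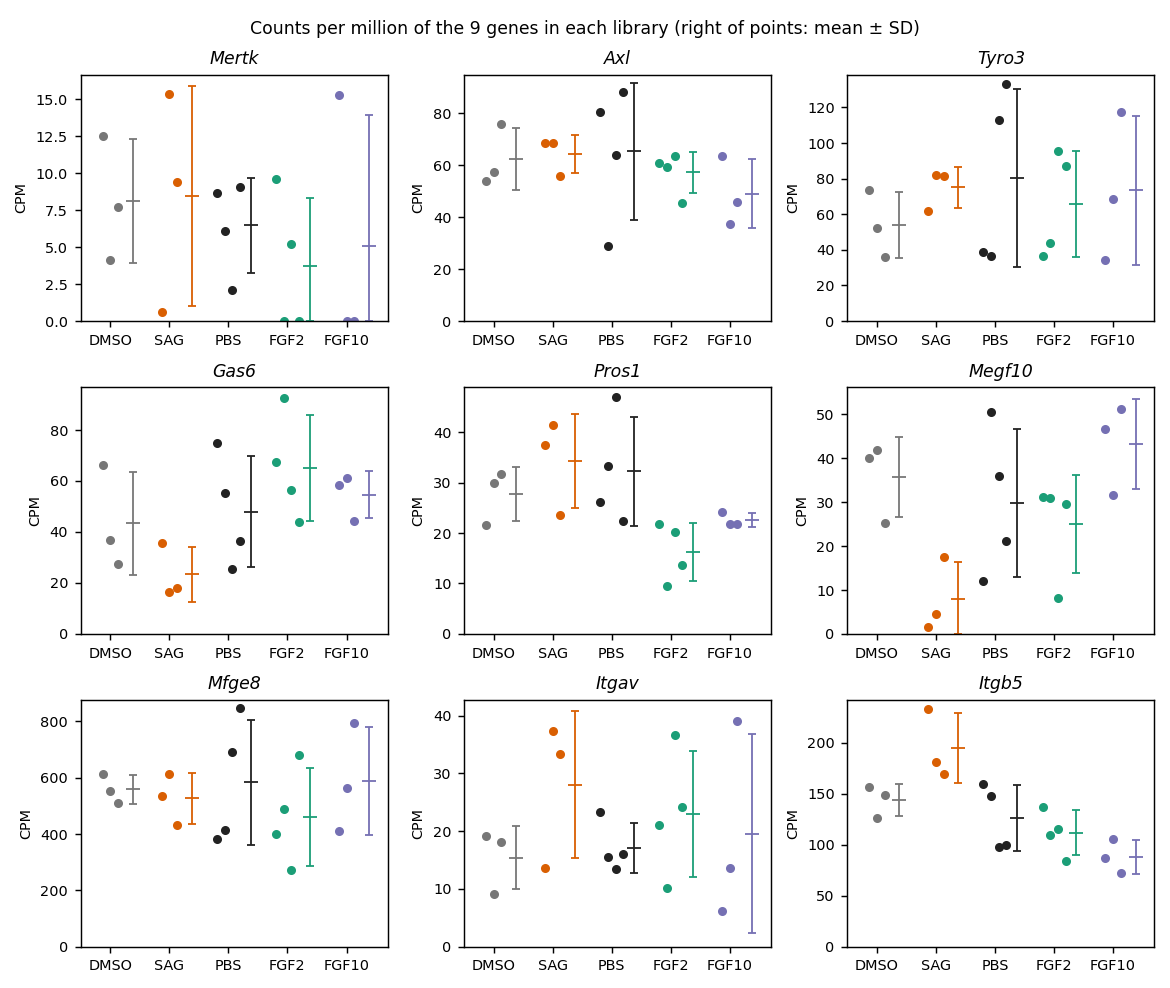
CPM (vertical axes, linear, from 0) of the 9 genes in each of 17 libraries, by group; each point is a library, and the bar to its right is the group mean ± SD, stopped at 0 where the SD exceeds the mean. Megf10 lay between 1.54 and 17.6 CPM in the 3 SAG libraries and between 25.2 and 41.8 in the 3 DMSO libraries; for most other genes the groups overlapped.

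Markers of the labelled cell type were present throughout: all 10 astrocyte markers, among them Aldh1l1, Aqp4 and Slc1a3, were above 3 counts in every library and summed to 3458 to 5595 CPM. Because microglia also express TAM receptors, Gas6 and Pros1, their markers were read beside the 9 genes: Aif1, Csf1r, Fcrls and Mrc1 had 0 counts in all 17 libraries, and all 11 microglia and macrophage markers together gave 0 to 25.5 CPM, the highest value being in SAG replicate 1. Oligodendrocyte lineage markers summed to 1160 to 2408 CPM, neuron markers to 24.0 to 168 CPM, endothelial or mural markers to 41.0 to 355 CPM and fibroblast markers to 0 to 82.3 CPM, with Slc17a6, Slc17a7, Cldn5 and Lum at 0 counts throughout. Ptch1, a target gene of the SHH pathway, checked the SAG label: it lay between 461 and 482 CPM in SAG and between 67.2 and 103 CPM in DMSO libraries (log2(fold-change) 2.50, standard error 0.22, edgeR adjusted p = 0.00173).

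None of the 9 genes passed an adjusted p of 0.05 in any comparison (edgeR, quasi-likelihood test, Benjamini-Hochberg over every gene tested). The same threshold was passed by 0.0638% of 12538 genes for SAG against DMSO (8 genes) and by 0% of genes in the 4 other comparisons. At an unadjusted p under 0.05, edgeR gave 1 of the 9 genes for SAG (Megf10, beside 5.69% of all genes) and 0 in the others, beside 1.75% of all genes for FGF2 and 2.29% for FGF10 against PBS, 2.4% between the growth factors and 4.37% between the controls. DESeq2's Wald test also called 0 of the 9 at an adjusted p under 0.05 in each comparison, where it called 3% of the 12234 genes with a p-value for SAG, 0.0712% for FGF2 and 0.283% for FGF10 against PBS, 0.212% between the growth factors and 0.967% between the controls. The spread between replicates was wide: the common biological coefficient of variation was 107% to 117%. In counts simulated with the dispersion of these data, 57 to 87 of 200 genes changed by 2 on the log2 scale were called. Most changes of that size were thus missed. The study calls its samples biological replicates and states for its experiments in general that they were repeated independently with mice of several generations. Neither it nor the labels say which animals or preparations gave each library of a group. Each p-value therefore measures only the spread between these samples, part of which may be technical. In bulk RNA, fewer cells of a type and less RNA per cell cannot be told apart.

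**Figure D2:**
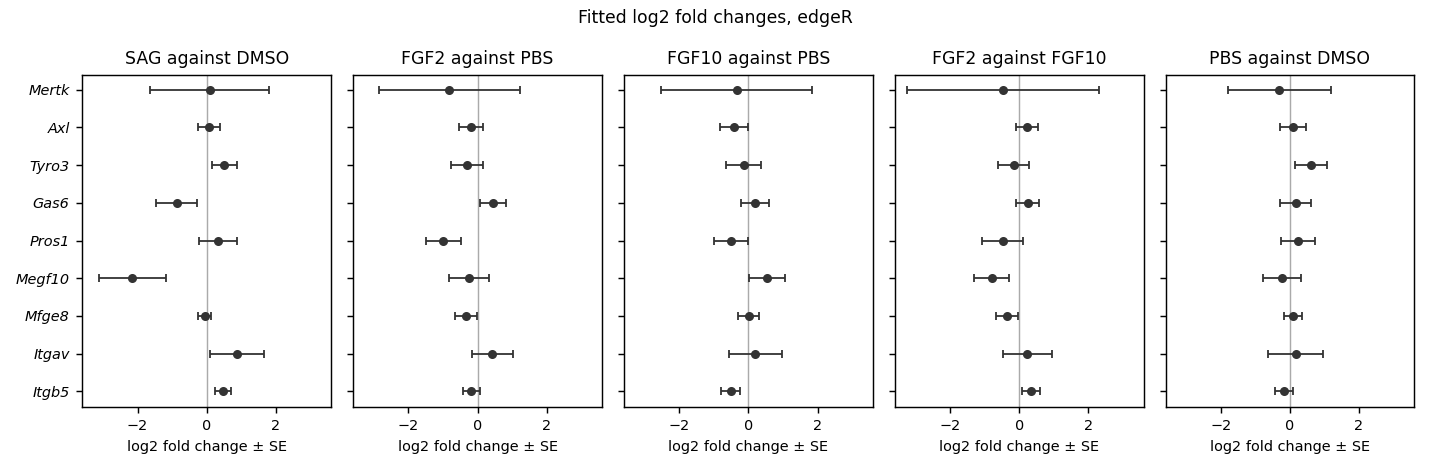
Log2(fold-change) (horizontal axes) of the 9 genes in 5 comparisons, as points with bars of ± 1 standard error from edgeR; the vertical line marks 0. Megf10 stands farthest from 0 under SAG at -2.15, Pros1 under FGF2 at -0.99, and the bars of Mertk are the widest in each panel.

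Among the TAM receptors, Axl varied least from library to library. It has the highest affinity for Gas6 of the family. Axl was at 53.9, 57.3 and 75.8 CPM in DMSO and at 68.5, 68.4 and 55.9 CPM in SAG replicates 1 to 3. It read 80.5, 28.8, 63.8 and 88.2 CPM in PBS, 60.7, 59.3, 63.3 and 45.6 CPM in FGF2, and 63.4, 37.4 and 45.9 CPM in FGF10. Every group overlapped with its control, and PBS replicate 2 was the lowest library. The log2(fold-change) was 0.06 ± 0.33 (standard error) for SAG, -0.20 ± 0.35 for FGF2 and -0.42 ± 0.40 for FGF10. By group mean the order was PBS, SAG, DMSO, FGF2 and FGF10, from 65.3 to 48.9 CPM, and no neighbours in it differed beyond their SDs.

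Tyro3, the TAM receptor best known from neurons, differed more between sets of replicates than between treatments. PBS replicates 1 to 4 had 38.7, 36.4, 113 and 133 CPM, FGF2 replicates 36.6, 43.9, 95.5 and 87.2 CPM, and FGF10 replicates 1 to 3 had 34.3, 68.4 and 118 CPM. Over the 3 groups, replicates 1 and 2 thus lay at 34.3 to 68.4 CPM (6 libraries) and replicates 3 and 4 at 87.2 to 133 CPM (5 libraries), with no overlap. The same separation held for 4.8% of 14553 genes, and for 2.51% with replicates 3 and 4 higher, as for Tyro3. It was noticed in these data and is described without a test. Marker sums separated at the same place: astrocyte markers were at 4697 to 5595 CPM in replicates 1 and 2 and at 3458 to 3944 CPM in replicates 3 and 4, neuron markers at 99.8 to 149 and 27.1 to 47.3 CPM, endothelial or mural markers at 158 to 355 and 41.0 to 98.7 CPM, and oligodendrocyte lineage markers at 1160 to 1473 and 1842 to 2408 CPM. Their part in the Tyro3 values was not tested, and the labels name no batch.

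Against their controls, the Tyro3 groups overlapped. DMSO libraries had 73.4, 52.2 and 36.0 CPM and SAG libraries 61.8, 81.8 and 81.5 CPM, a log2(fold-change) of 0.50 ± 0.36. It was -0.30 ± 0.46 for FGF2 and -0.13 ± 0.51 for FGF10 against PBS. Within replicates 1 and 2 alone the corresponding values were 0.10 and 0.44, so neither sign held within that set. Within replicates 3 and 4 they were -0.44 and -0.08. The last of these rests on a single FGF10 library, which is assumed to vary like the PBS libraries, and was added after the data were seen.

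**Figure D3:**
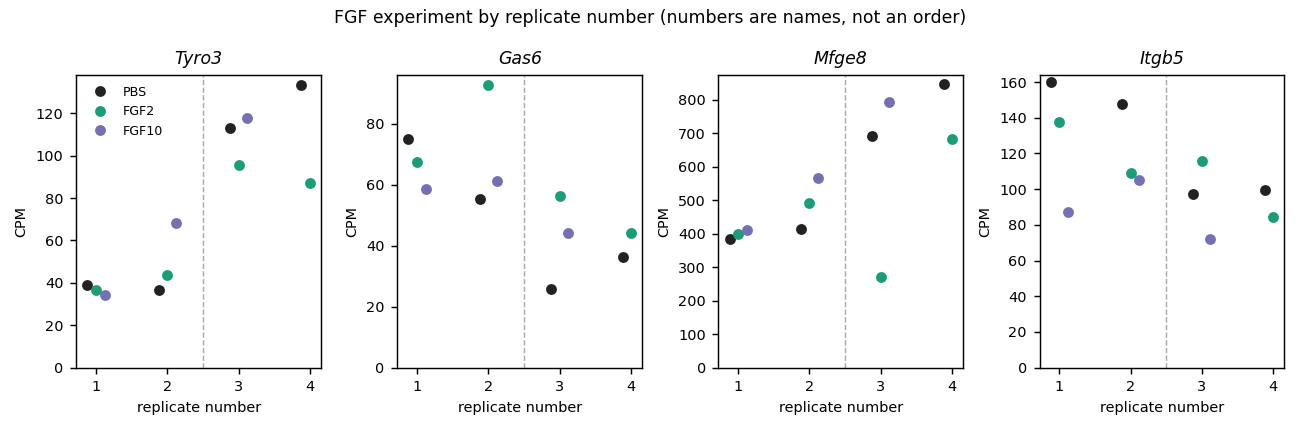
CPM (vertical axes, from 0) of Tyro3, Gas6, Mfge8 and Itgb5 in the 11 PBS, FGF2 and FGF10 libraries by replicate number (horizontal axes, a name and not an order); the dashed line separates replicates 1 and 2 from 3 and 4. Tyro3 lies at 34.3 to 68.4 CPM left of the line and at 87.2 to 133 CPM right of it, while the other 3 genes overlap.

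Mertk, the TAM receptor that astrocytes are best known to use for engulfment, was the scarcest of the 9 genes and the most uneven. It had 12.5, 4.10 and 7.73 CPM in DMSO and 0.600, 15.3 and 9.43 CPM in SAG libraries. PBS libraries had 8.63, 6.06, 2.10 and 9.08 CPM, FGF2 libraries 9.60, 0, 5.22 and 0 CPM, and FGF10 libraries 15.3, 0.0206 and 0 CPM, so that 4 libraries of the FGF2 and FGF10 groups held at most 3 counts and none of the controls did. Empty libraries are common at this level: of 1131 genes with a mean of 4.97 to 7.77 CPM, around that of Mertk, 97.3% had at most 3 counts in some library and 51.5% had so in at least 4. A count of 0 allows up to 3 counts, or 0.171 CPM in FGF2 replicate 2, by counting error alone. Log2(fold-changes) were 0.08 ± 1.71 for SAG, -0.81 ± 2.03 for FGF2 and -0.34 ± 2.18 for FGF10 (edgeR, each with an adjusted p of 1.00). With standard errors of this size, changes of several fold in Mertk were not detectable.

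The share of each receptor in the summed TAM receptor counts does not depend on how libraries are scaled. Tyro3 made up 30.1% to 71.9% of these counts, Axl 28.1% to 63.4% and Mertk 0% to 13.5% over the 17 libraries. The mean share of Axl was 50.8% ± 12.4 (SD, n = 3) in DMSO, 43.9% ± 7.47 (n = 3) in SAG, 44.3% ± 12.6 (n = 4) in PBS, 46.8% ± 12.1 (n = 4) in FGF2 and 39.9% ± 14.6 (n = 3) in FGF10. Shares of all 3 receptors overlapped between groups in all 5 comparisons. Two-sided exact permutation tests gave adjusted p-values from 0.914 to 0.971 over 20 tests of shares, with the ligand tests included.

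**Figure D4:**
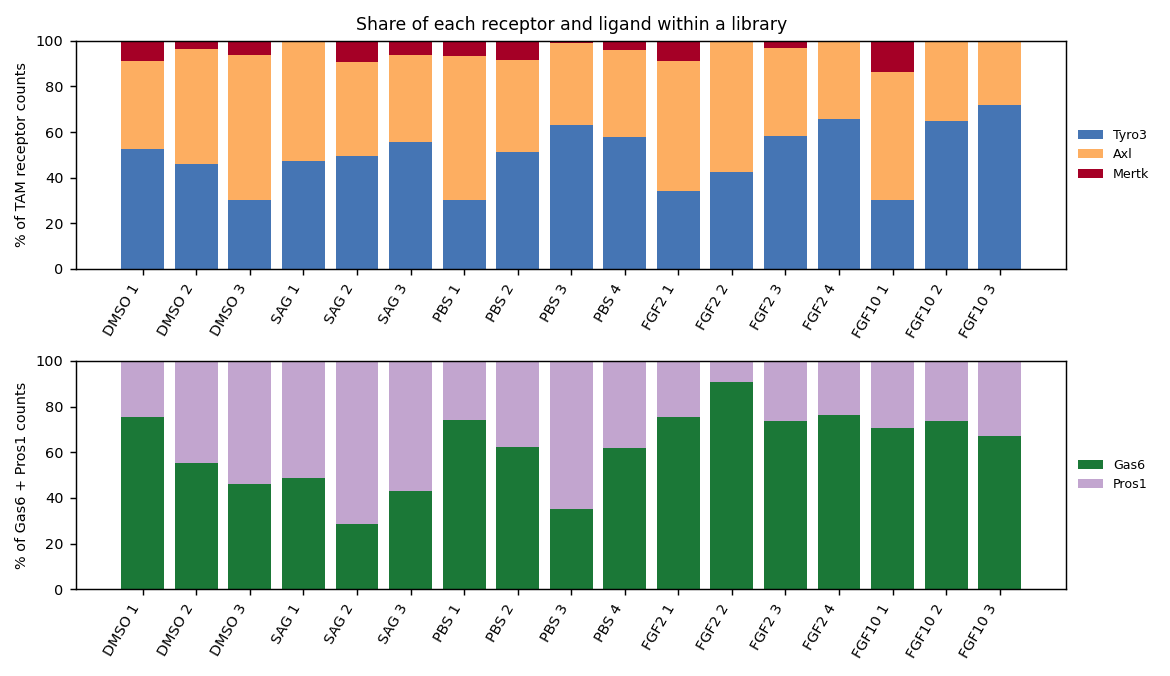
Top, percent of the summed Tyro3, Axl and Mertk counts from each receptor (stacked bars, vertical axis 0 to 100%); bottom, percent of the summed Gas6 and Pros1 counts from each ligand, in each of 17 libraries. Gas6 held 73.5% to 90.8% of the ligand counts in FGF2 and 35.3% to 74.1% in PBS libraries.

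The ligand Gas6, a vitamin K-dependent protein that activates all TAM receptors, had 66.2, 36.7 and 27.4 CPM in DMSO and 35.6, 16.6 and 17.8 CPM in SAG libraries. SAG replicates 2 and 3 were the lowest of the 17 libraries, but the groups overlapped, since SAG replicate 1 exceeded DMSO replicate 3 (log2(fold-change) -0.87 ± 0.59, edgeR adjusted p = 1.00). The value was -0.44 without DMSO replicate 1 and -1.31 without SAG replicate 1. In the FGF experiment Gas6 read 74.9, 55.1, 25.7 and 36.4 CPM in PBS, 67.3, 92.7, 56.3 and 44.0 CPM in FGF2, and 58.5, 61.2 and 44.2 CPM in FGF10 libraries. Log2(fold-changes) were 0.44 ± 0.38 for FGF2 and 0.19 ± 0.40 for FGF10. Gas6 was lower in replicates 3 and 4 than in 1 and 2 within each group, yet over the 3 groups the sets overlapped, at 25.7 to 56.3 and 55.1 to 92.7 CPM. The 3ʹ end of Gas6 (GRCm38 chr8:13465374-13494490, minus strand) lies within Tmem255b on the opposite strand, and the sources used here do not say whether reads were counted by strand. Tmem255b had 1 to 868 counts per library against 554 to 3672 for Gas6.

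Pros1 encodes protein S, a plasma anticoagulant and the ligand of Mertk and Tyro3 in the TAM family. It was lower in all 4 FGF2 libraries than in all 4 PBS libraries. PBS replicates 1 to 4 had 26.2, 33.3, 47.0 and 22.3 CPM and FGF2 replicates 21.8, 9.42, 20.3 and 13.7 CPM. The highest FGF2 library, replicate 1, was thus just under the lowest PBS library, replicate 4. Of all 12744 genes tested, 2.44% had groups without overlap and 1.18% had them with FGF2 lower. The log2(fold-change) was -0.99 ± 0.52 with an edgeR adjusted p of 1.00, and the two-sided exact permutation test of CPM gave p = 0.0286 without adjustment, the smallest it can give for 4 against 4. It was -0.93 within replicates 1 and 2 and -1.04 within replicates 3 and 4, so the difference did not follow the replicate sets that separated Tyro3.

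FGF10 libraries held 24.1, 21.8 and 21.7 CPM of Pros1. They overlapped with PBS (log2(fold-change) -0.51 ± 0.49) and with FGF2 libraries (FGF2 against FGF10, -0.47 ± 0.59). Both FGF comparisons use the same PBS libraries. None of the 9 genes separated FGF10 from PBS libraries, as 4.8% of 13309 genes did. In the first experiment Pros1 was at 21.6, 29.9 and 31.8 CPM in DMSO and 37.5, 41.5 and 23.7 CPM in SAG libraries, with overlap (0.32 ± 0.56).

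Promoter sequence was looked up for the genes whose groups did not overlap with their control. In the table of promoters from RefSeq (GRCm38.p6), 8 of the 9 genes were present and Megf10 was not. The 250 bases before the start of Pros1 (GRCm38 chr16:62854057-62854306, plus strand, just upstream of the gene at chr16:62854307-62929346) are shown because it was the gene whose FGF2 and PBS libraries separated. Capitals mark GGGCGG, the GC box bound by SP1, on either strand.
Pros1: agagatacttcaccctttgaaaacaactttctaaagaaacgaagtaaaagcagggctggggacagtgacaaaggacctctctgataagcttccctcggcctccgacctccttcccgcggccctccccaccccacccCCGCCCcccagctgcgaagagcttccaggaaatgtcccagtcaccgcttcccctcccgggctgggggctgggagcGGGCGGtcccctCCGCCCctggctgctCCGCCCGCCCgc
The motif occurred 5 times, and the copies that begin 12 and 8 bases before the start overlap. It was found in 7 of the 8 promoters (all but Itgav), against 32.7% of 32851 promoters of the same length. The GLI site TGGGTGGTC was searched on both strands because GLI factors act at the end of the SHH pathway, and CACGTG because TFEB, a regulator of lysosomal genes, binds it: neither occurred in any of the 8 windows, and they were present in 0.225% and 6.02% of all promoters. These windows held 54.8% to 73.2% G and C, against a median of 52.4% for all promoters, with the most CpG sites, 24, in the window of Tyro3 (median of all promoters 6). That window (GRCm38 chr2:119799264-119799513) precedes the RefSeq start and lies inside Tyro3 as GENCODE annotates the gene (chr2:119797733-119818104). A match is a description of letters and not evidence of binding.

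The share of Gas6 in the summed counts of both ligands put these values together within each library. PBS libraries 1 to 4 had shares of 74.1%, 62.3%, 35.3% and 61.9%, and FGF2 libraries had 75.6%, 90.8%, 73.5% and 76.3%. The groups overlapped only through PBS replicate 1 and FGF2 replicate 3. The mean was 58.4% ± 16.4 (SD, n = 4) in PBS and 79.0% ± 7.91 (n = 4) in FGF2, a difference of 20.6 percentage points (two-sided exact permutation p = 0.0571, adjusted p = 0.914 over 20 tests). Without single libraries this difference ran from 12.9 points, without PBS replicate 3, to 25.8 points, without PBS replicate 1. FGF10 libraries had shares of 70.8%, 73.7% and 67.0%. For SAG the shares were 48.7%, 28.5% and 42.9% against 75.4%, 55.1% and 46.3% in DMSO, a difference of -18.9 points (two-sided exact permutation p = 0.2, adjusted p = 0.914, with 0.1 the smallest p that 3 against 3 allows). It ran from -25.2 to -10.7 points without single libraries, the latter without DMSO replicate 1.

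Megf10, a scavenger-type receptor that works beside Mertk in synapse removal by astrocytes, showed the largest difference of the 9 genes. It had 40.2, 41.8 and 25.2 CPM in DMSO replicates 1 to 3 and 1.54, 4.53 and 17.6 CPM in SAG replicates 1 to 3. All SAG libraries were below all DMSO libraries, as was the case for 8.18% of the 12538 genes tested (14.1% did not overlap in either direction). SAG replicate 3 was the closest to its control. The log2(fold-change) was -2.15 ± 0.97 (edgeR, p = 0.0474, adjusted p = 0.858), and the two-sided exact permutation test gave p = 0.1, the smallest possible. DESeq2 gave -2.13 ± 0.81 with an adjusted p of 0.180. Without SAG replicate 3 the log2(fold-change) was -3.54 and its edgeR adjusted p was 0.550, so the size of the difference depended on that library. Marker sums also set SAG apart from DMSO: the 8 oligodendrocyte lineage markers, of which Mog was at 0, summed to 1918 to 2071 CPM in SAG and 1256 to 1705 CPM in DMSO libraries, mostly from Olig2 (1840 and 1154 CPM in the mean), while Sox10 was at 42.9 and 94.3 CPM. Fibroblast markers summed to 0 to 8.88 CPM in SAG and 20.1 to 31.6 CPM in DMSO, where most came from Pdgfrb. Pdgfrb is also in the endothelial or mural list and was at 0 to 6.45 CPM in SAG and 19.1 to 23.7 CPM in DMSO. Astrocyte, neuron and endothelial or mural sums overlapped. Of the 10 astrocyte markers, 1 was higher and 3 were lower under SAG at an unadjusted edgeR p under 0.05, and 0 passed the adjusted threshold. Gfap, an intermediate filament of astrocytes, was at 25.3 to 59.9 CPM in SAG and 140 to 199 CPM in DMSO libraries (log2(fold-change) -2.08 ± 0.35, edgeR adjusted p = 0.0854). Sox9 was at 777 to 1082 and 1271 to 1386 CPM, Gja1 at 41.5 to 86.8 and 107 to 128 CPM, and Aldh1l1, the higher one, at 201 to 353 and 152 to 172 CPM. The single markers named in this paragraph were picked after their values were seen. The part of the markers in the Megf10 and Itgb5 values was not tested.

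In the FGF experiment Megf10 was at 12.0, 50.5, 35.9 and 21.3 CPM in PBS, 31.2, 31.0, 8.29 and 29.6 CPM in FGF2, and 46.7, 31.7 and 51.3 CPM in FGF10 libraries. PBS spanned nearly the whole range of both treated groups, and log2(fold-changes) against it were -0.25 ± 0.58 for FGF2 and 0.53 ± 0.51 for FGF10. FGF2 and FGF10 were compared directly, at the same dose and time, and did not overlap: the lowest FGF10 library, at 31.7 CPM, was just above the highest FGF2 library, at 31.2 CPM. The difference was -0.79 ± 0.51 (edgeR adjusted p = 1.00), and 2.54% of 13493 genes separated in that direction (4.94% in either). By group mean, Megf10 stood in the order FGF10, DMSO, PBS, FGF2 and SAG, at 43.2, 35.7, 29.9, 25.0 and 7.90 CPM. Of the neighbours in this order, FGF2 and SAG were the pair with the widest gap, and these groups come from different experiments.

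The bridging protein Mfge8, which astrocytes secrete and which tags phosphatidylserine for αv integrins, was abundant in every culture. DMSO libraries had 613, 552 and 510 CPM and SAG libraries 534, 612 and 433 CPM, which gave a log2(fold-change) of -0.06 ± 0.18, with the smallest standard error of the 9 genes in that comparison. PBS libraries had 384, 415, 690 and 846 CPM, FGF2 libraries 399, 490, 272 and 682 CPM, and FGF10 libraries 412, 565 and 793 CPM. In PBS and in FGF10 the libraries of replicates 3 and 4 were above those of 1 and 2, whereas FGF2 replicate 3 was the lowest of all 17. The fold changes were -0.34 ± 0.32 for FGF2 and 0.01 ± 0.30 for FGF10 on the log2 scale, with overlapping groups. That for FGF2 was 0.16 within replicates 1 and 2 and -0.69 within replicates 3 and 4.

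Of the receptor chains for Mfge8, Itgb5, the β5 chain, was higher in all 3 SAG libraries (233, 181 and 169 CPM) than in all 3 DMSO libraries (156, 126 and 148 CPM). Groups without overlap and with SAG higher were found for 5.96% of all genes. The log2(fold-change) was 0.46 ± 0.23 (edgeR adjusted p = 0.960, two-sided exact permutation p = 0.1, the smallest possible). With Megf10, Itgb5 made 2 of 9 genes without overlap under SAG, beside 14.1% of all genes. The 250 bases before Itgb5 (GRCm38 chr16:33829415-33829664, plus strand, upstream of the gene at chr16:33829665-33949338) are shown as the counterpart of the Pros1 promoter, with the same motif in capitals.
Itgb5: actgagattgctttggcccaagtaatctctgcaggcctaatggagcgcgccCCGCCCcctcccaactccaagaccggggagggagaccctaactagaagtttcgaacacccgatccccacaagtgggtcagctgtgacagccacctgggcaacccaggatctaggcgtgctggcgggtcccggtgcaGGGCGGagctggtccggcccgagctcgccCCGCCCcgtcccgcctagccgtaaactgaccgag
It held 3 copies of GGGCGG on either strand, beginning 199, 63 and 34 bases before the start.

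Under the growth factors Itgb5 read 160, 148, 97.3 and 99.5 CPM in PBS, 137, 109, 116 and 84.1 CPM in FGF2, and 86.9, 105 and 71.9 CPM in FGF10 libraries. PBS replicates 1 and 2 were above PBS replicates 3 and 4. All groups overlapped, with log2(fold-changes) of -0.18 ± 0.25 for FGF2 and -0.51 ± 0.28 for FGF10. Group means ran from 195 CPM in SAG through 143 in DMSO, 126 in PBS and 112 in FGF2 to 88.1 CPM in FGF10, and only the step from SAG to DMSO joined groups whose libraries did not overlap.

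Itgav, the αv chain that pairs with β5 and with other β chains, was low and uneven. It had 19.1, 9.10 and 18.1 CPM in DMSO and 13.6, 37.3 and 33.3 CPM in SAG libraries, so SAG replicates 2 and 3 were above all DMSO libraries and SAG replicate 1 was among them (log2(fold-change) 0.89 ± 0.78). PBS libraries had 23.3, 15.5, 13.4 and 16.0 CPM, FGF2 libraries 21.1, 10.1, 36.7 and 24.2 CPM, and FGF10 libraries 6.17, 13.6 and 39.0 CPM. FGF10 alone covered the range from the lowest to the highest library of the series. Log2(fold-changes) were 0.43 ± 0.59 for FGF2 and 0.20 ± 0.76 for FGF10.

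Control cultures of both experiments differed in solvent, days in vitro and experiment together, which cannot be told apart. None of the 9 genes separated PBS from DMSO libraries, where 6.41% of all genes did. The largest difference was that of Tyro3, 0.60 ± 0.47, with PBS replicates 1 and 2 within the DMSO range and replicates 3 and 4 above it. PBS serves as control in 2 of the comparisons above and DMSO in SAG against DMSO, so values that share these libraries are not independent.

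For SAG, 6 of the 9 genes had a log2(fold-change) above 0 and 3 below, with a median of 0.08 beside -0.02 for all genes. For FGF2 it was 2 above and 7 below, with a median of -0.25 beside 0.0011, and for FGF10 4 above and 5 below, with a median of -0.13. For FGF2 against FGF10 it was 4 above and 5 below, with a median of -0.16 (all genes 0.0085). For PBS against DMSO it was 6 above and 3 below, with a median of 0.09 (all genes 0.02). These counts are descriptions and carry no test.

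Across all 17 libraries, the genes with the most similar profiles differed for each of the 9. The measure was Pearson's r of log2 CPM among 9070 genes with a mean of at least 10 CPM, given without a p since libraries share treatments and replicate sets. Tyro3 was closest to Sall3 (r = 0.91), Fbln2 and Rps25, Gas6 to Zeb2 (0.89), Mta2 and Pantr2, and Itgb5 to Sparcl1 (0.86), Gria2 and Malat1. Megf10 was closest to Bbs4 (0.86), Sipa1l1 and Tmem100, Mfge8 to Cdkn1c (0.85), Fam110b and Gm44645, and Axl to Scyl2 (0.82), Mfsd10 and Per3. The lowest leading values were those of Mertk with Etfrf1 (0.79), Zbtb22 and Fam193b, Itgav with Rtraf (0.78), Isy1 and Ssrp1, and Pros1 with Fam193a (0.77), Adi1 and St13. No member was among the 3 closest genes of another. Between members r was farthest from 0 for Megf10 and Itgb5, at -0.66 over the 17 libraries and -0.40 with group means removed. It was -0.61 and -0.37 for Gas6 and Pros1, 0.56 and 0.62 for Tyro3 and Mfge8, and 0.14 and -0.12 for the integrin chains Itgav and Itgb5. For Gas6 and Itgb5 it was -0.27 and, with group means removed, 0.75.

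A further 92 genes of engulfment were read in 8 lists, and 62 to 67 of them passed the low-count filter in a comparison. In edgeR 0 of them passed an adjusted p of 0.05 in any comparison. At an unadjusted p under 0.05, 1 was higher and 6 were lower under SAG, 0 under FGF2 against PBS, 1 higher and 1 lower under FGF10 against PBS, 0 for FGF2 against FGF10, and 3 higher and 2 lower for PBS against DMSO. Of the 64 tested for SAG these are 7, beside 5.69% of all genes, and of the 67 for PBS against DMSO 5, beside 4.37%. DESeq2 called 4 of the 64 for SAG (Abca1, C4b, Clu and Edil3, all lower), beside 3% of all genes, 2 of the 67 for PBS against DMSO (Scarb1 higher, Edil3 lower), beside 0.967%, and 0 in the other comparisons.

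Other bridging proteins and opsonins, which coat a target as Mfge8 and Gas6 do, were the list with the lowest median under SAG: 8 of 14 were tested, 2 above 0 and 6 below, with a median of -0.67 beside -0.02 for all genes. The genes given here for their small p were picked after their values were seen. Clu, which encodes the extracellular chaperone clusterin, had 448, 437 and 595 CPM in DMSO and 279, 241 and 241 CPM in SAG libraries. The groups were far apart (log2(fold-change) -0.94 ± 0.19), with an edgeR adjusted p of 0.207 and a DESeq2 adjusted p of 1.96e-05. C4b, a complement component, was at 46.4, 40.7 and 78.8 CPM in DMSO and 0.457, 13.1 and 9.40 CPM in SAG libraries (edgeR adjusted p = 0.592, DESeq2 adjusted p = 0.0151).

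Edil3, a secreted protein that like Mfge8 joins phosphatidylserine to αv integrins, was the gene with the lowest value in this list under SAG. It had 314, 152 and 260 counts in the DMSO libraries and 0 in each of the SAG and PBS libraries, while FGF2 libraries had 231, 176, 116 and 0 counts and FGF10 libraries 270, 0 and 0. The edgeR adjusted p for SAG was 0.663 and that of DESeq2 0.0111. Both p-values rest on empty SAG libraries. Edil3 did not exceed 10.4 CPM in any library. The part of this low level in its empty libraries was not tested. Lgals3, galectin-3, was the highest of the list in both named comparisons, at 0.29 ± 2.73 for SAG and 0.87 ± 1.94 for FGF2, and Tub was the lowest for FGF2 at -0.60 ± 0.68.

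Of 20 genes of engulfment signaling, which carry the signal from Megf10 or the TAM receptors to the cytoskeleton, 17 were tested and 7 were above 0 and 10 below under SAG. Abca1, a lipid transporter, was picked after its values were seen. It had 528, 524 and 424 CPM in DMSO and 254, 305 and 275 CPM in SAG libraries, without overlap (log2(fold-change) -0.80 ± 0.18, edgeR adjusted p = 0.301, DESeq2 adjusted p = 2.2e-05). By the rule for named genes, the extremes were Vav3 at 0.54 ± 0.71 and Abca7 at -1.42 ± 2.84 for SAG, and Dock1 at 0.59 ± 0.32 and Abca7 at -1.78 ± 2.49 for FGF2.

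Only 5 of 17 other engulfment receptors could be tested under SAG, with Megf11 highest at 1.12 ± 0.77 and Ager lowest at -0.82 ± 3.20, and 4 under FGF2, with Adgrb1 (BAI1, a phosphatidylserine receptor) at 0.05 ± 0.38 and Megf11 at -0.65 ± 0.42. All 7 tested genes of phosphatidylserine exposure were above 0 under SAG, from 0.20 ± 0.38 for Tmem30a to 2.29 ± 2.91 for the scramblase Xkr8, and 5 of 7 were above 0 under FGF2, with Atp8a1 lowest at -0.45 ± 0.32. Of all genes 48.9% and 50.1% were above 0 in these comparisons.

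Among other integrin chains Itgb1 was at 0.11 ± 0.18 for SAG and 0.07 ± 0.20 for FGF2, Itga5 at -0.57 ± 3.06 for SAG and Itgb8 at -0.22 ± 0.31 for FGF2. Of the signals that hold phagocytes off, Cd200 and Cd24a marked the extremes for SAG at 0.82 ± 0.61 and -0.76 ± 0.39, and all 4 were below 0 for FGF2, from -0.09 ± 0.36 for Cd24a to -0.33 ± 0.57 for Sirpa. Genes listed under TAM ligand processing and receptor control ranged from Socs1 (2.39 ± 2.89) to Adam10 (-0.41 ± 0.65) for SAG. For FGF2 they ranged from Socs3 (0.73 ± 0.90) to Ggcx (-1.01 ± 0.71), the vitamin K-dependent carboxylase. Of the phagosome and lysosome genes, Rubcn was lowest at -0.97 ± 0.37 for SAG, and values ranged from Tfeb (0.89 ± 2.35) to Rab5a (-0.96 ± 1.35) for FGF2. None of these values passed the edgeR threshold.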

How the data were processed

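RNA-seq was read from the deposited table of whole-number gene counts, which the authors made from 3ʹ-end libraries (QuantSeq FWD) with STAR, without normalization. The submitters' processing notes name GRCm38, STAR and DESeq2. Annotation release, strand setting and removal of PCR copies are not given in the sources used here. Of 56805 rows, 114 spike-in rows (at most 86 counts in a library) were left out. Totals per library were 17481727 to 68342287 counts, with a median of 37173676.

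Groups and replicate numbers came from the sample labels. Each comparison was fitted on its own groups in R 4.3.3 with edgeR 4.0.16: filterByExpr (minimum count 10, minimum total 15), TMM, the quasi-likelihood test without covariates, and Benjamini-Hochberg adjustment over all genes tested, with a call at an adjusted p under 0.05. Standard errors came from the F statistic. CPM were TMM-scaled over all 17 libraries. For log2 CPM a prior count of 2 was added. Single genes and shares were tested by two-sided exact permutation.

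DESeq2 1.42.0 and other settings were alternatives. The tests were checked on simulated counts. Gene positions came from GENCODE (GRCm38). The 9 genes, the 8 pathway lists and the marker lists were chosen with earlier results of these data known. Named genes were the 9, the genes of each list called in any comparison or otherwise its extremes for SAG against DMSO and FGF2 against PBS, the 3 closest genes to each member, and Ptch1. Some values that this rule calls for are not reported here. Apart from Tmem255b and genes of the marker lists, genes outside that rule are marked as picked after their values were seen. Replicate numbers were not treated as pairing samples.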

Additional observations from a re-analysis of the deposited data

Results flagged for a closer look

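In 26 groups of 4 libraries (9 genes and 4 shares in PBS and FGF2), a library was set apart when its gap to the nearest of the others exceeded Dixon's 95% critical share of the range of the group, which chance does in about 1 in 20 groups. This held for 2 of them. Megf10 was at 8.29 CPM in FGF2 replicate 3, while the other FGF2 libraries lay at 29.6 to 31.2 CPM. Gas6 made up 90.8% of the Gas6 and Pros1 counts in FGF2 replicate 2, beside 73.5% to 76.3% in the other FGF2 libraries. FGF2 replicate 2 also had the lowest total count of the series, 17481727. The part of that depth in the share was not tested.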

How the results depend on the processing

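The count of 0 called among the 9 genes was the same in each comparison with DESeq2's size factors, without a filter, with a mean of 10 counts as the filter, with all 5 groups in 1 fit, with DESeq2's Wald test, with a replicate block, with the replicate set as a term or within a set in the FGF experiment, and without each library in turn. The number called over all genes did move: for SAG against DMSO it was 8 as reported, 7 with DESeq2's size factors, 76 without a filter, 42 with the mean filter, 4 with all groups in 1 fit, 33 with the replicate block and 367 with DESeq2. DESeq2 gave 9 for FGF2 and 37 for FGF10 against PBS, 28 for FGF2 against FGF10 and 126 for PBS against DMSO, each 0 in edgeR. Without a filter edgeR gave 2 for FGF2 against FGF10 and 36 for PBS against DMSO, where the mean filter gave 4 and all groups in 1 fit 1. The cause was not tested. Same-numbered libraries deviated together with correlations of -0.015 to 0.134, so the numbers were not taken as pairs, and few libraries correlated best with their own number. PBS against DMSO had no block fit.

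Only genes that were not called changed sign. With the replicate block these were Mertk under SAG (-0.35), Tyro3 and Itgav under FGF10 against PBS (0.25 and -0.20) and Mertk for FGF2 against FGF10 (0.94). With the replicate set as a term they were Tyro3 under FGF10 (0.24) and Mertk for FGF2 against FGF10 (0.89). Within replicates 1 and 2, FGF2 against PBS turned for Axl (0.14), Tyro3 (0.10), Mfge8 (0.16) and Itgav (-0.31), and FGF10 against PBS for Mertk (0.056), Tyro3 (0.44), Gas6 (-0.12) and Itgav (-0.98). Itgb5 turned within replicates 3 and 4 for FGF2 (0.010), Mertk (9.77) and Itgav (-0.36) there for FGF2 against FGF10, and Mfge8 with the mean filter for FGF10 (-0.0054). The fits of both FGF10 comparisons within replicates 3 and 4 were chosen after seeing the data, and their single FGF10 library was assumed to vary like the others.

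Leaving out a library gave log2(fold-changes) that crossed 0 for these genes. For SAG the range was -0.66 to 0.64 for Mertk, -0.032 to 0.23 for Axl and -0.18 to 0.055 for Mfge8. For FGF2 against PBS it was -0.54 to 0.067 for Tyro3 and -0.52 to 0.12 for Megf10. For FGF10 against PBS it was -8.89 to 0.24 for Mertk, -0.65 to 0.22 for Tyro3, -0.028 to 0.47 for Gas6, -0.26 to 0.24 for Mfge8 and -0.79 to 0.61 for Itgav. For FGF2 against FGF10 it was -1.05 to 8.09 for Mertk, -0.50 to 0.36 for Tyro3 and -0.19 to 1.22 for Itgav. For PBS against DMSO it was -0.63 to 0.14 for Mertk, -0.098 to 0.34 for Axl, -0.13 to 0.60 for Gas6, -0.011 to 0.37 for Pros1, -0.61 to 0.027 for Megf10, -0.15 to 0.25 for Mfge8 and -0.11 to 0.34 for Itgav.

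Differences in shares crossed 0 in the same way, in percentage points. For Mertk they ran from -2.90 to 1.50 (SAG), -5.08 to 1.68 (FGF10 against PBS), -3.72 to 3.03 (FGF2 against FGF10) and -2.61 to 0.0565 (PBS against DMSO). For Axl they ran from -1.07 to 8.70 (FGF2 against PBS) and -12.6 to 1.76 (FGF10 against PBS), for Tyro3 from -7.20 to 4.88 (FGF2 against PBS), -3.11 to 17.7 (FGF10 against PBS) and -18.1 to 2.67 (FGF2 against FGF10), and for Gas6 among ligands from -6.83 to 7.71 (PBS against DMSO).

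Megf10 under SAG ran from -3.54 to -1.67 without a library, Itgb5 under SAG from 0.31 to 0.55 and Pros1 under FGF2 from -1.16 to -0.75, with no change of sign. Mertk had at most 3 counts in 4 libraries, and at such counts a level cannot be told from 0.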
